A study of Mus musculus with 12 samples.

Results

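The SR proteins (genes Srsf1 to Srsf12) and the heterogeneous nuclear ribonucleoproteins (hnRNPs, genes starting with Hnrnp) are the general RNA-binding splicing factors of the nucleus. Their genes were taken from the count tables by symbol alone, as every symbol made of Srsf and a number or starting with Hnrnp and a letter. This gave 31 genes, 11 Srsf and 20 Hnrnp, of 24421 counted genes. The question was whether these general factors shift with loss of another splicing regulator, Mbnl2, or with training.

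The libraries were poly(A)-selected RNA from the dorsal hippocampus of male mice aged 4 to 5 months on a 129sv/C57BL/6j background. Mbnl2 WT house control, Mbnl2 WT trained, Mbnl2 KO house control and Mbnl2 KO trained mice gave 3 libraries each. The labels describe neither the training task, nor its timing, nor the Mbnl2 allele. Each library carries a number of its own in the labels, but no label says that these mark separate animals, so p-values measure the spread between these libraries.

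SR proteins carry RNA recognition motifs and a domain rich in arginine and serine, bind enhancers in exons and help the spliceosome to define an exon. hnRNPs coat nascent transcripts through RNA recognition, KH or related domains, often act against exon inclusion, and also serve in RNA export, transport and decay. Many of these genes control their own level through exons or introns whose splicing sends the messenger RNA to decay. Mbnl2, a muscleblind-like protein, regulates alternative exons in the brain and is sequestered by expanded repeats in myotonic dystrophy. The counts are sums over whole genes, so they show how much RNA of a factor was present and not which isoform.

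The libraries held 19737929 to 27427076 counts. The 31 genes took 0.397% to 0.476% of them, and a count of 3, taken as the floor, was worth 0.109 to 0.152 CPM. CPM is a count scaled to the size of its library, here after TMM scaling, and is the unit of all levels below. Summed CPM of 8 dentate granule neuron markers ranged from 332 to 1255 and that of 11 pyramidal neuron markers from 547 to 1313, so neurons of the labelled region were present in every library. Mbnl2 itself stood at 315 to 338 CPM in WT house controls and at 360.4 to 365 CPM in WT trained mice. It stood at 454 to 488 CPM in the libraries labelled KO house control and at 473 to 542 CPM in those labelled KO trained. The gene count was thus higher in every library labelled KO. edgeR put the log2 difference at 0.51, with an SE of 0.05 and an adjusted p of 0.00626. It was 0.50 in the first run of libraries alone (replicates 1 and 2 of each group) and did not pass the threshold there. It was 0.49 with 3 house control libraries left out, which kept only replicate 1 of the WT house controls. Mbnl2 passed the threshold in 19 of 21 alternative fits, which used another tool, scaling or filter, a covariate or fewer libraries. A count over the whole gene does not check the KO label where the allele is not described, and the directions below go by the labels. The 12 libraries form 2 runs of numbers in the labels, a first of 8 (replicates 1 and 2 of each group) and a second of 4 (replicate 3 of each group).

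Upstream sequence is shown for 4 genes described below, and a shared coding stretch for Hnrnpa1. The windows of Hnrnpk, Hnrnpm and Srsf12, on which several values below turn, overlap annotated exons and are not shown. The windows are the 150 bases before a RefSeq start on GRCm38.p6, printed in the gene's direction, with any searched motif in capitals. Srsf2, an exonic enhancer factor, lies on the minus strand (window chr11:116853095-116853244), Srsf6, an SR protein with a pair of RNA recognition motifs, on the plus strand (chr2:162931358-162931507), Hnrnpa0, a single-exon relative of Hnrnpa1, on the minus strand (chr13:58128557-58128706) and Hnrnpa2b1 on the minus strand (chr6:51469895-51470044). None of the 4 windows overlaps an annotated exon.
Srsf2: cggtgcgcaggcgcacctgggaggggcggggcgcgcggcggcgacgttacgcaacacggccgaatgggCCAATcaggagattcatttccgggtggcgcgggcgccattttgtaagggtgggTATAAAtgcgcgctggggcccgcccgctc
Srsf6: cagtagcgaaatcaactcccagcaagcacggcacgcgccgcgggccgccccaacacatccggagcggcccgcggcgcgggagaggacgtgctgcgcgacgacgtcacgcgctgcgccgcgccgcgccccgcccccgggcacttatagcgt
Hnrnpa0: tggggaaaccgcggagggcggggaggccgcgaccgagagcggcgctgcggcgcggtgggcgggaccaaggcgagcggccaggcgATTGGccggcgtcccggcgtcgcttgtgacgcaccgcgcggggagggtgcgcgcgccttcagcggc
Hnrnpa2b1: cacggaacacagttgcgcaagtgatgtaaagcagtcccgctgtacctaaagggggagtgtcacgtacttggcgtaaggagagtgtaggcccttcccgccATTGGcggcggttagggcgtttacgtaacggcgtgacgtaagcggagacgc

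The windows of Srsf2, Hnrnpa0 and Hnrnpa2b1 each hold a CCAAT box (CCAAT, or ATTGG on the other strand), and that of Srsf2 also a TATA box (TATAAA). The Srsf6 window holds none of the 5 motifs searched. Over the 29 of the 31 genes with a RefSeq window, 16 (55.2%) held CCAAT on either strand, against 27.7% of 27025 genes with windows of the same length. A gene can have several windows and counted if any of them held the motif. By window, CCAAT was in 18 of 41, against 24.5% of 32851. CCGGAAGT, the ETS core, was in windows of 3 genes (10.3% against 2.72%) and GCATGCGC, the NRF1 core, in windows of 2 (6.90% against 2.1%). TATAAA was in windows of 2 genes (6.90% against 8.89%), while TGACGTCA, the cAMP response element, was in none, against 1.58% of all genes. The median GC content of the windows was 67.3% for these genes and 54.0% for all. These matches are letters in a window and show no binding.

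The second kind of sequence bears on counting. Hnrnpa1, on chromosome 15 at 103240432 to 103246692 (GRCm38), binds UAG-containing RNA and is a classical splicing repressor, and the mouse genome carries many processed copies of it. The 75 bases below, from bases 1078 to 1152 of its longest coding transcript and within the coding sequence, stand without a mismatch in 4 annotated processed pseudogenes (AC123659.1, Gm10052, Gm43097 and Gm5643). They are shown as an example of a stretch within which a read cannot be placed. The length of 75 bases was a setting.
Hnrnpa1: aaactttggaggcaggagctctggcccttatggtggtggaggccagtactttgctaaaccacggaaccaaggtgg

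Of the 1045 such windows in the Hnrnpa1 coding sequence, 815 (78.0%) occur in another annotated gene. The count of Hnrnpa1 was 6.98 CPM on average (5.33 to 8.52 CPM), and the pseudogene Gm5643 on chromosome X averaged 21.1 ± 0.666 CPM over the 6 WT libraries and 20.9 ± 1.33 CPM over the 6 labelled KO (SD). Gm5643 thus took more counts than its parent gene in every library. Gm10052, which holds more of the Hnrnpa1 windows over the whole gene (26.95%, against 12.65% for Gm5643), had a total count of 0. The level of Hnrnpa1 is uncertain. Over whole genes, the share of 75-base windows found in another gene was 56.0% for Hnrnpf, 37.8% for Srsf4, 27% for Hnrnpa1, 26.1% for Hnrnpa3 and 20.9% for Hnrnpab. It was 18.5% for Srsf2, 14.3% for Hnrnpk, 13.0% for Hnrnpm and 11.1% for Hnrnph2, and the other 22 genes stayed at or under 8.5%, 9 of them at 0. In 7 of the 31 genes, exons overlap those of another counted gene. Hnrnpm overlaps March2 on the same strand. On the opposite strand Hnrnpk overlaps Rmi1, Hnrnpu overlaps Cox20 and Srsf2 overlaps Mfsd11. Also on the opposite strand, Srsf4 overlaps Gm12992 over 43.0% of its exon bases and Hnrnpab overlaps Phykpl over 29.1%. On the same strand, as for Hnrnpm and March2, no strand setting would separate reads of the shared exons. For the pairs on opposite strands no strand setting is stated, so it is not known whether their reads were counted apart. March2 had a log2 fold change of 0.06 (adjusted p = 0.568) in KO-labelled against WT libraries over both treatments.

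All 31 genes were expressed in every library and passed the filter on low counts, with 119 to 12707 counts per gene and library. Levels per kb divide by all exon bases annotated for a gene over its transcripts, 22199 for Hnrnpr against 2678 for Hnrnpa0. The order thus depends on the annotation. Per kb of exon, Hnrnpa0 was highest at 89.8 CPM per kb, followed by Hnrnpab, a DNA- and RNA-binding hnRNP, at 65.4 and Hnrnpul2, a relative of the scaffold protein Hnrnpu, at 48.8. Among SR genes Srsf2 was highest at 40.3 CPM per kb, followed by Srsf5 at 37.9 and Srsf1, the founding SR protein, at 31. The lowest were Hnrnpa1 at 2.21 CPM per kb, Hnrnph3 at 3.07 and, among SR genes, Srsf4 at 5.97. The levels of Hnrnpa1 and Srsf4 are uncertain, since 27% and 37.8% of their windows are shared with other genes. Near the top, the same holds for Hnrnpab (20.9% of windows shared) and Srsf2 (18.5%). Their exon bases overlap other counted genes by 29.1% and 25.3%. The library ranges overlapped in 24 of the 30 pairs of neighbours in this order. The 6 pairs that did not overlap were Hnrnpa0 and Hnrnpab, Hnrnpab and Hnrnpul2, Srsf3 and Srsf10, and, at the low end, Hnrnpll and Hnrnpr, Hnrnpr and Hnrnph3, and Hnrnph3 and Hnrnpa1.

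**Figure D1:**
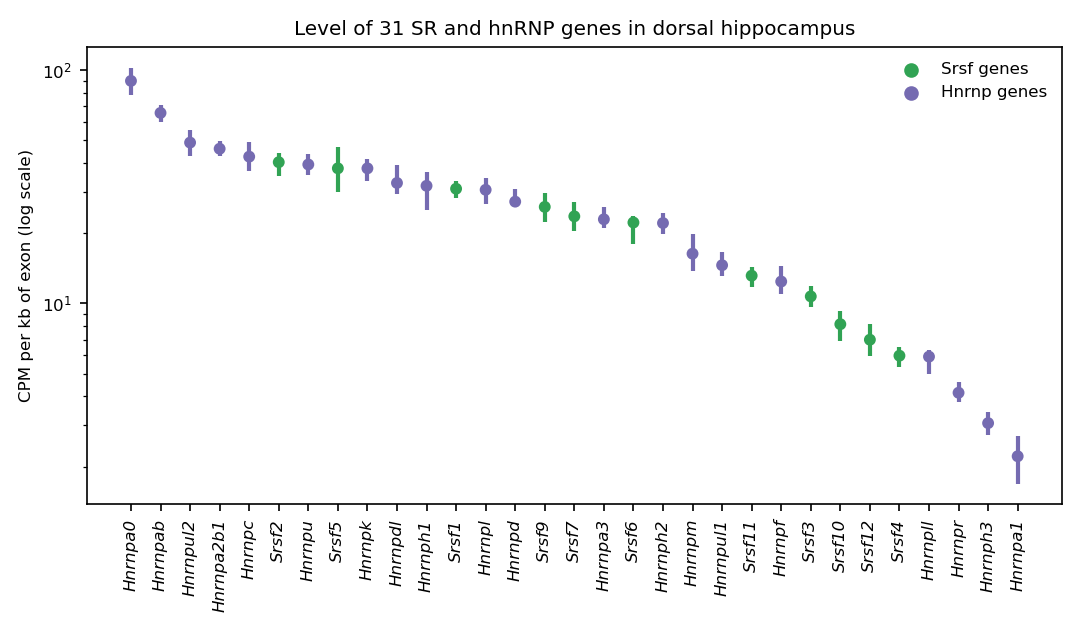
Level of each of the 31 genes as CPM per kb of exon (log axis), ordered from highest to lowest; points are means over 12 libraries, lines run from the lowest to the highest library, green marks Srsf and purple Hnrnp genes. Levels run from 89.8 for Hnrnpa0 to 2.21 for Hnrnpa1, a 40.5-fold range. Its low end is uncertain because Hnrnpa1 shares sequence with pseudogenes.

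Within a group the levels varied little. The median within-group coefficient of variation was 7.40% over the 31 genes and 13.8% over all 15622 genes tested. For genes of at least 100 CPM it was 7.15% over 19 of the 31 and 10.1% over 2388 genes in all. Hnrnpa2b1, which sorts and transports RNAs as well as repressing exons, varied least at 3.22%, and Srsf5 and Hnrnpa1 most at 14.0% and 13.7%. Over all 12 libraries the highest value of a gene was 1.16 to 1.6 times its lowest.

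Comparing KO-labelled with WT libraries over both treatments asked whether the general factors shift with genotype. None of the 31 genes passed the threshold (edgeR quasi-likelihood test, Benjamini-Hochberg adjusted p under 0.05 over all genes), where 0.576% of all 15622 genes did. Without adjustment, 6 of 31 had p under 0.05, a share to be read against 14.4% of all genes. That count was 2 without WT house control replicate 2, WT trained replicate 3, KO-labelled house control replicate 3 or KO-labelled trained replicate 3, and 3 without WT trained replicate 2, KO-labelled house control replicate 2 or KO-labelled trained replicate 1. It was 4 without WT house control replicate 1 or 3 and 8 at most, without KO-labelled house control replicate 1, and it was 0 in the first run alone. Genes called by edgeR over all genes changed too, from 90 in the full fit to 31 without WT house control replicate 2. They were 8 without WT trained replicate 3, 2 in the first run and 268 without WT house control replicate 1. The share of all genes with unadjusted p under 0.05 is not given for these sets, so the counts do not single out the 31 genes. DESeq2, a second tool with a Wald test, called 2 of the 31, Hnrnpk (log2 fold change -0.17, SE 0.05, adjusted p = 0.0269) and Hnrnpm (-0.20, SE 0.07, adjusted p = 0.0451). It called 4.59% of all genes, 1.34% as lower in KO-labelled libraries. The call on these 2 genes thus rests on the choice of tool.

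The estimates were small and mostly of the same sign. In 27 of 31 genes the log2 fold change was below 0, against 52.0% of all genes, with a median of -0.09 (a change of -5.80%) against -0.01 over all genes. By family this was 19 of 20 Hnrnp genes, with a median of -0.09, and 8 of 11 Srsf genes, with a median of -0.06. The 4 genes above 0 were Srsf9, Hnrnpll, Srsf4 and Srsf12. The genes were measured in the same libraries and are not independent of each other. All 31 intervals (95%, each gene alone) lay within a 1.5-fold change in either direction, and 30 lay within 1.3-fold. The exception was Hnrnpa1, whose lower bound was -0.42, and the highest upper bound was 0.26, for Srsf12.

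**Figure D2:**
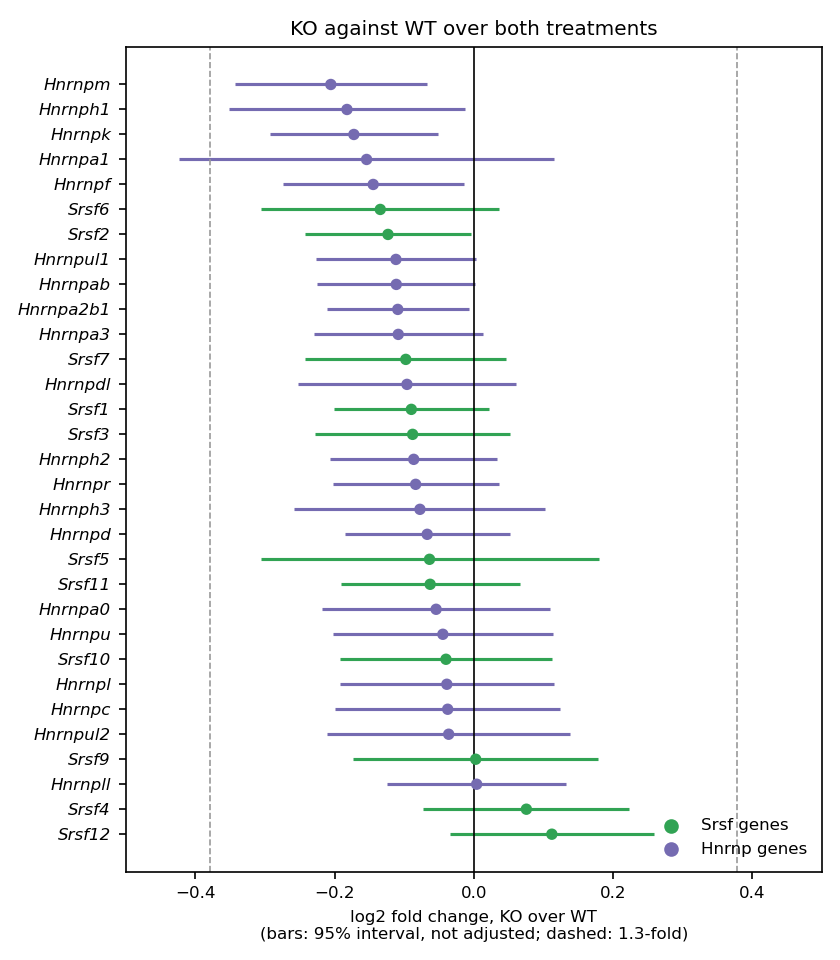
Log2 fold change of each gene in KO-labelled over WT libraries over both treatments (6 against 6), with 95% intervals from the edgeR fit; dashed lines mark 1.3-fold, green marks Srsf and purple Hnrnp genes. Hnrnpm lies lowest at -0.21 and Srsf12 highest at 0.11.

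Among the hnRNPs, Hnrnpm, which binds GU-rich RNA and regulates alternative exons, had the lowest p. It was at 142, 129 and 131 CPM in WT house controls, 139, 158 and 136 CPM in WT trained, 131, 120.5 and 113 CPM in KO-labelled house controls and 123, 127 and 109.6 CPM in KO-labelled trained mice. Trained WT values lay above all trained KO-labelled values, while the house control ranges overlapped. The log2 fold change was -0.21 (SE 0.06, 95% interval -0.34 to -0.07, unadjusted p = 0.00741, edgeR adjusted p = 0.171).

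Hnrnpk, a KH-domain protein that binds C-rich RNA and DNA, was at 265, 269 and 256 CPM in WT house controls and 238, 262 and 266 CPM in WT trained mice. It was at 246, 219 and 224 CPM in KO-labelled house controls and 216, 242 and 234 CPM in KO-labelled trained mice. The house control groups did not overlap and the trained groups did, by the WT library at 238 CPM. The log2 fold change over both treatments was -0.17 (SE 0.05, interval -0.29 to -0.05, adjusted p = 0.186).

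The G-tract-binding hnRNPs F and H1 followed. Hnrnph1 was at 211, 193 and 183 CPM in WT house controls, 189, 214 and 198 CPM in WT trained, 191, 177 and 147 CPM in KO-labelled house controls and 184, 188 and 160.4 CPM in KO-labelled trained mice. Its lowest values were the KO-labelled libraries of the second run, at 147 and 160.4 CPM, and its log2 fold change was -0.18 (SE 0.08, adjusted p = 0.307). Hnrnpf was at 36.3, 42.0 and 44.0 CPM in WT house controls, 38.1, 38.6 and 39.3 CPM in WT trained, 38.1, 34.6 and 34.8 CPM in KO-labelled house controls and 33.4, 37.8 and 36.8 CPM in KO-labelled trained mice. The house control ranges overlapped, the trained ranges did not, and the log2 fold change over both treatments was -0.14 (SE 0.06, adjusted p = 0.293). It was -0.05 once WT house control replicates 2 and 3 and KO-labelled house control replicate 3 were left out, the 3 house control libraries with most RNA of choroid plexus or thalamus. That kept only replicate 1 of the WT house controls, which held the lowest Hnrnpf value of that group, at 36.3 CPM.

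Of the A/B group, Hnrnpa2b1 was at 297 to 327 CPM in WT and 283 to 302 CPM in KO-labelled libraries, with a log2 fold change of -0.11 (SE 0.05, adjusted p = 0.308). Hnrnpab had -0.11 (adjusted p = 0.354) and Hnrnpa3 -0.11 (adjusted p = 0.401). Hnrnpa0 was at 274, 242 and 209 CPM in WT house controls, 251, 258 and 235 CPM in WT trained, 265, 232 and 218 CPM in KO-labelled house controls and 239, 232 and 229 CPM in KO-labelled trained mice. These ranges overlapped between genotypes in both treatments, in trained mice by the WT library at 235 CPM, and the log2 fold change was -0.05 (adjusted p = 0.781). Hnrnpa1 read 6.68, 8.52 and 7.39 CPM in WT house controls, 7.35, 7.55 and 6.63 CPM in WT trained, 7.28, 5.33 and 6.95 CPM in KO-labelled house controls and 6.85, 7.84 and 5.43 CPM in KO-labelled trained mice. Its groups overlapped, and its log2 fold change was -0.15 with the largest SE of the 31, 0.12. Hnrnpd, a factor of AU-rich decay, and its relative Hnrnpdl had -0.07 and -0.10 (adjusted p = 0.602 and 0.567).

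Estimates of the remaining hnRNPs ran from -0.11 to 0.00. Hnrnpc, which binds U-rich tracts, had a log2 fold change of -0.04 (interval -0.20 to 0.12), and Hnrnpu, which binds RNA and scaffold DNA, had -0.04 (interval -0.20 to 0.11). Hnrnpul1 had -0.11 (adjusted p = 0.360) and Hnrnpul2 -0.04. Hnrnph2 and Hnrnph3, relatives of Hnrnph1, had -0.09 and -0.08, and Hnrnpr, which travels with messenger RNA in axons, -0.08. Of the CA-binding pair, Hnrnpl had -0.04 and Hnrnpll 0.00, with an interval from -0.12 to 0.13.

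Among SR genes, Srsf2 was at 122, 122 and 129 CPM in WT house controls, 119.8, 129.9 and 122 CPM in WT trained, 119.8, 125 and 104 CPM in KO-labelled house controls and 112, 116 and 107 CPM in KO-labelled trained mice. The trained ranges did not overlap, and the log2 fold change over both treatments was -0.12 (SE 0.05, adjusted p = 0.328). Srsf1 was at 186, 180.4 and 181 CPM in WT house controls, 175, 187 and 186 CPM in WT trained, 191, 170.4 and 166 CPM in KO-labelled house controls and 165, 176 and 161 CPM in KO-labelled trained mice. Its ranges overlapped in both treatments, with a log2 fold change of -0.09 (adjusted p = 0.446). Srsf3, an export and splicing factor, had -0.09 (adjusted p = 0.559), Srsf7, its zinc-knuckle relative, -0.10 (adjusted p = 0.523) and Srsf5 -0.06 (adjusted p = 0.835). Srsf9, Srsf10 and Srsf11 had 0.00, -0.04 and -0.06. Srsf6 was at 112, 112 and 113 CPM in WT house controls, 109.8, 113 and 111 CPM in WT trained, 111, 109 and 86.2 CPM in KO-labelled house controls and 102, 114 and 88.0 CPM in KO-labelled trained mice. Its low values were thus 2 libraries, the KO-labelled ones of the second run, and its log2 fold change was -0.13 (SE 0.08, adjusted p = 0.456). In the first run the mean KO minus WT difference of Srsf6 in log2 CPM was -0.03, and in the second, with 1 library per group, -0.36. That difference between runs was not tested.

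Srsf12, a small SR-related antagonist of other SR proteins, had a positive estimate in house controls. It was at 20.6, 18.8 and 18.8 CPM in WT house controls, 22.2, 25.6 and 21.2 CPM in WT trained, 22.8, 22.9 and 23.3 CPM in KO-labelled house controls and 24.5, 20.5 and 23.0 CPM in KO-labelled trained mice. The WT house controls lay below every other library but KO-labelled trained replicate 2, whose value of 20.5 CPM fell within their range. In house controls the log2 fold change of KO-labelled over WT was 0.25 (SE 0.09, interval 0.04 to 0.45, unadjusted p = 0.0243, edgeR adjusted p = 0.404). Over both treatments it was 0.11 (interval -0.03 to 0.26). Srsf4, of whose windows 37.8% are shared, was at 23.0, 19.5 and 19.0 CPM in WT house controls, 21.1, 22.5 and 19.15 CPM in WT trained, 21.5, 23.1 and 20.6 CPM in KO-labelled house controls and 22.5, 21.3 and 21.9 CPM in KO-labelled trained mice. Its ranges overlapped, with a log2 fold change of 0.08 (adjusted p = 0.645).

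**Figure D3:**
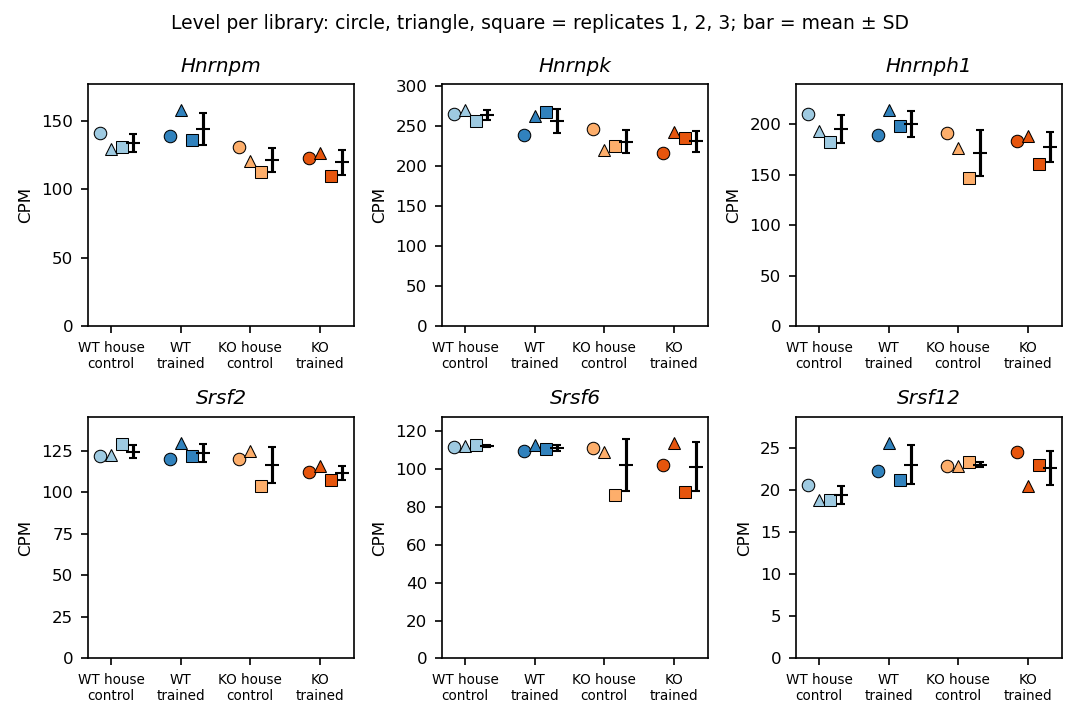
CPM of 6 genes in each library, by group, on axes starting at 0; circles, triangles and squares are replicates 1, 2 and 3, and bars give mean ± SD (n = 3). Hnrnpm and Hnrnpk have lower means in the KO-labelled groups (121.5 and 119.8 CPM for Hnrnpm, against 134 and 144 CPM). Srsf6 is low in 2 KO-labelled squares (86.2 and 88.0 CPM), and Srsf12 has its lowest mean in WT house controls (19.4 ± 1.06 CPM).

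Taken within each treatment, the genotype comparison again called none of the 31 genes. In house controls edgeR called 0.0128% of all genes. Here 3 of 31 had an unadjusted p under 0.05 (Srsf12, Hnrnpk and Hnrnpf), against 10.7% of all genes. None did without WT house control replicate 2 or in the first run alone, and 1 did without KO-labelled house control replicate 2 or 3. Without KO-labelled house control replicate 1 the count was 4. The share of all genes is not given for these smaller sets. With the 3 house control libraries named above left out, only replicate 1 of the WT house controls remained. Its Hnrnpf value was the lowest of that group, at 36.3 CPM, and the house control estimate of Hnrnpf moved from -0.19 to -0.00030. In house controls 26 of 31 had a log2 fold change below 0, against 50.2%, with a median of -0.08. KO-labelled values lay wholly below WT values for Hnrnpk, Hnrnpa3, Hnrnpa2b1 and Srsf6 (4 of 31, against 6.09% of all genes) and wholly above for Srsf12 (1 of 31, against 6.94%). In trained mice edgeR called 0.0128% of all genes and none of the 31. An unadjusted p under 0.05 was found for 1 of 31, Hnrnpm (log2 fold change -0.27, SE 0.09, adjusted p = 0.614), against 6.45% of all genes. None did without WT trained replicate 2 or without KO-labelled trained replicate 3. The count was 2 without WT house control replicate 1 and 4 with only the 6 trained libraries fitted. The share of all genes is not given for these sets. In the full fit 28 estimates for trained mice were below 0, against 52.4%, with a median of -0.08. KO-labelled values lay wholly below WT values for 7 of 31 (Hnrnpm, Hnrnpul1, Hnrnpab, Srsf2, Hnrnpa2b1, Hnrnph1 and Hnrnpf), against 6.38% of all genes, and wholly above for none, against 7.61%. The smallest p after Hnrnpm belonged to Hnrnpul1 (-0.15, adjusted p = 0.791), at 128, 137 and 128 CPM in WT trained against 122, 114 and 117 CPM in KO-labelled trained mice, and at 143, 129 and 120.4 CPM in WT against 126, 121 and 127 CPM in KO-labelled house controls. Next came Hnrnpab (-0.14, adjusted p = 0.811), at 193, 197 and 192 CPM against 179.6, 169 and 179 CPM in trained mice, and at 195, 178 and 181 CPM against 189.5, 166 and 166 CPM in house controls. The authors' deposited tables also called none of the 31 between genotypes, with the smallest adjusted p at 0.440 in house controls and 0.359 in trained mice, where those tables called 0.558% and 0.834% of all genes.

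The lower values were not spread evenly over the libraries. The mean of the 31 log2 deviations from each gene's 12-library mean was lowest in KO-labelled house control replicate 3 (-0.12) and KO-labelled trained replicate 3 (-0.09), where 28 and 26 of 31 genes stood below their mean. It was highest in WT house control replicate 1 (0.10) and WT trained replicate 2 (0.09), where 10 and 11 genes had their highest value. The summed level of the 31 genes was 4482 ± 201 CPM over the 6 WT libraries and 4224 ± 192 CPM over the 6 labelled KO (SD), and the ranges overlapped (4207 to 4752 and 4007 to 4549 CPM). Without both KO-labelled replicates 3, an alternative chosen after seeing the data, 23 of 31 estimates were below 0 with a median of -0.05. The medians were then -0.03 in house controls and -0.04 in trained mice, and none of the 31 was called. Within the first run 25 of 31 differences were below 0 with a median of -0.07, and within the second 26 with a median of -0.11.

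**Figure D4:**
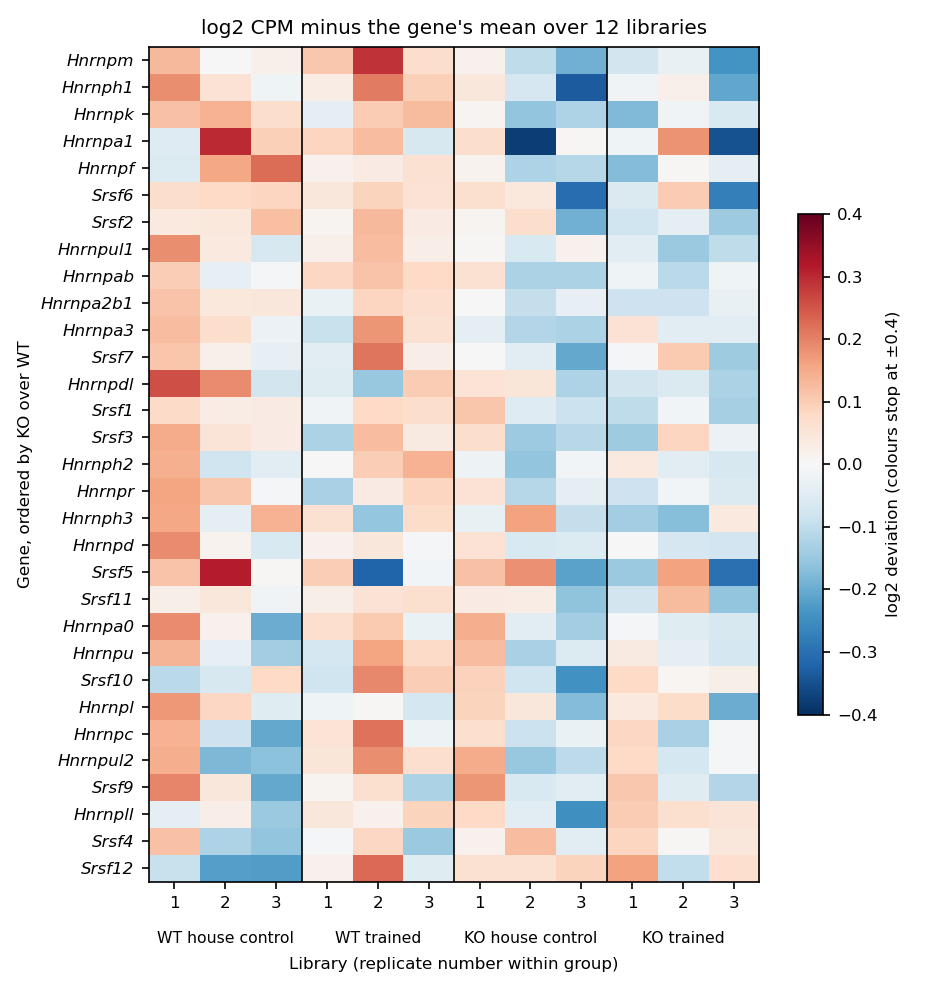
Log2 CPM of each gene minus its mean over the 12 libraries; rows are genes ordered by KO over WT, columns are libraries by group, red is above and blue below the mean. Columns KO house control 3 and KO trained 3 are blue in most rows (mean -0.12 and -0.09) and WT house control 1 and WT trained 2 are mostly red (0.10 and 0.09).

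Markers of neighbouring tissue, of neurons and of glia differed between libraries. Summed CPM of 12 choroid plexus markers ranged from 277 to 22387 in WT house controls, 161 to 11562 in WT trained, 531 to 4309 in KO-labelled house controls and 234 to 6612 in KO-labelled trained mice. All 12 had a log2 fold change below 0 in KO-labelled over WT libraries over both treatments (median -1.38), as had all 10 leptomeningeal fibroblast markers (median -0.94) and 9 of 10 thalamus markers (median -0.37), none of them called. Leptomeningeal markers summed to 1320.2 to 1873 CPM in WT house controls, 194 to 1250.1 CPM in WT trained, 216 to 665 CPM in KO-labelled house controls and 277 to 657 CPM in KO-labelled trained mice. Thalamus markers summed to 248 to 616 CPM in WT and 186 to 504 CPM in KO-labelled libraries. Of 12 striatum and septum markers 11 were above 0 (median 1.00), none called, with sums of 288 to 1027, 261 to 333, 321 to 1172 and 270.1 to 1460.4 CPM in the same 4 groups. The neuron markers of the hippocampus also differed with genotype in their estimates. All 8 dentate granule neuron markers were below 0 (median -0.57, none called), with sums of 544 to 1157 CPM in WT house controls, 689 to 1255 CPM in WT trained, 332 to 908 CPM in KO-labelled house controls and 389 to 773 CPM in KO-labelled trained mice. Of 11 pyramidal neuron markers 9 were above 0 (median 0.57), with sums of 547 to 885, 699 to 1036, 718 to 1233 and 1059.9 to 1313 CPM, and 1 was called, Cpne7, a copine (1.06, SE 0.16, edgeR adjusted p = 0.0251). Leaving out 1 library ended that call in 7 of 12 cases (WT house control 2, WT trained 2 and 3, KO-labelled house control 1 and 3, KO-labelled trained 1 and 3), with log2 fold changes of 0.95 to 1.16 and edgeR adjusted p of 0.0297 to 0.0853 over the 12. Oligodendrocyte markers (8) summed to 2789 to 12571 CPM in WT and 3710 to 13878 CPM in KO-labelled libraries, with 4 below 0 (median 0.00042). Markers of astrocytes, microglia and endothelial cells, 8 each, had medians of 0.08, 0.10 and -0.11, none called. No marker of these lists was at 0 in all libraries. Leaving out those 3 house control libraries kept only replicate 1 of the WT house controls. Then 26 of 31 genotype estimates were below 0, with a median of -0.11. Other libraries rich in choroid plexus RNA stayed in, among them WT trained replicate 3 at 11562 CPM and KO-labelled trained replicate 2 at 6612 CPM. Leaving out the 3 libraries thus does not test the part of choroid plexus. The part of these tissues and cell types in the estimates was not tested. In such bulk samples fewer cells of a type and less RNA per cell cannot be told apart.

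Training was compared within and over genotypes. Over both genotypes edgeR called none of the 31 genes and 0.0% of all genes, none of the 31 had an unadjusted p under 0.05 (11.2% of all genes did), and DESeq2 called none of the 31 and 0.442% of all. Estimates were below 0 for 16 of 31, against 52.3% of all genes, with a median of -0.01. All 31 intervals lay within 1.5-fold and 30 within 1.3-fold, the exception being Srsf5 (-0.17, interval -0.41 to 0.07). Srsf5, an SR protein whose level varied widely here, read 162, 186 and 150.1 CPM in WT house controls and 160.3, 120.0 and 149 CPM in WT trained mice. It read 163, 170.0 and 129 CPM in KO-labelled house controls and 135, 167 and 122 CPM in KO-labelled trained mice. These ranges overlapped in both genotypes.

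The smallest p for training over both genotypes belonged to Hnrnpll, a regulator of alternative exons known from lymphocytes. It was at 67.3, 70.1 and 62.1 CPM in WT house controls, 71.1, 69.8 and 73.4 CPM in WT trained, 72.9, 66.8 and 58.2 CPM in KO-labelled house controls and 74.0, 72.1 and 71.4 CPM in KO-labelled trained mice. Trained values sat in a narrow band of 69.8 to 74.0 CPM and overlapped the house control range in both genotypes. The log2 fold change was 0.12 (SE 0.06, interval -0.01 to 0.25, unadjusted p = 0.0650, adjusted p = 0.447), and 0.05 in the first run alone. Hnrnpdl was at 188, 179.6 and 149 CPM in WT house controls, 152, 142 and 169 CPM in WT trained, 163, 163 and 144 CPM in KO-labelled house controls and 149.7, 151 and 144 CPM in KO-labelled trained mice. Its ranges overlapped too, with a log2 fold change of -0.12 (SE 0.07, adjusted p = 0.490) that was -0.22 in the first run alone. Srsf10, a splicing repressor when dephosphorylated, was at 52.8, 54.4 and 60.1 CPM in WT house controls, 53.8, 65.0 and 60.9 CPM in WT trained, 60.6, 53.8 and 48.1 CPM in KO-labelled house controls and 60.1, 57.2 and 57.8 CPM in KO-labelled trained mice. Its ranges overlapped, with a log2 fold change of 0.11 (SE 0.07).

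**Figure D5:**
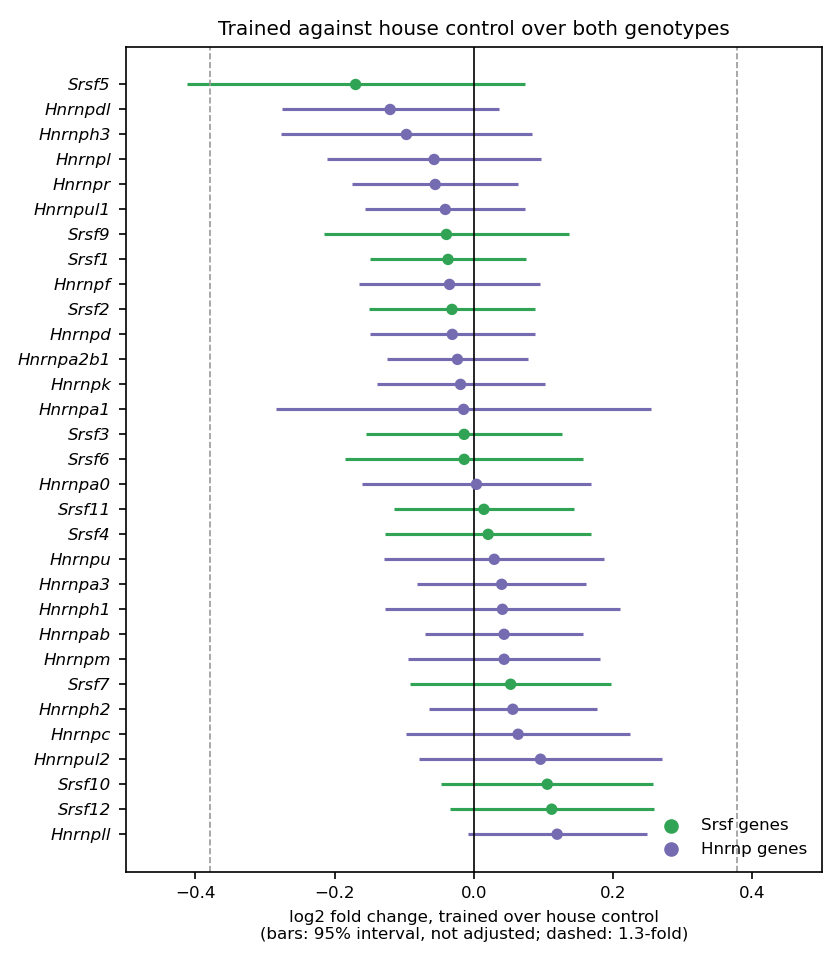
Log2 fold change of each gene in trained over house control libraries over both genotypes (6 against 6), with 95% intervals from the edgeR fit; dashed lines mark 1.3-fold, green marks Srsf and purple Hnrnp genes. Estimates spread on both sides of 0, from -0.17 for Srsf5 to 0.12 for Hnrnpll, and every interval includes 0.

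Within WT mice, training called none of the 31 genes and 0.0% of all genes. An unadjusted p under 0.05 was found for 1 of 31, against 9.82% of all genes. It was Srsf12, at a log2 fold change of 0.25 (SE 0.09, interval 0.04 to 0.45, adjusted p = 0.502). None did without WT house control replicate 2 or without WT trained replicate 2, and 3 did without WT house control replicate 1. The share of all genes is not given for these sets. The trained values of Srsf12 (21.2 to 25.6 CPM) lay above its house control values (18.8 to 20.6 CPM), as did those of 7.01% of all genes. This comparison shares the WT house control libraries with the genotype comparison in house controls, where Srsf12 also had an unadjusted p under 0.05. Hnrnpul2, at 383, 305 and 309 CPM in WT house controls and 358, 394 and 363 CPM in WT trained mice, had 0.16, and its ranges overlapped. In KO-labelled mice it was at 383, 311 and 322 CPM in house controls and 365, 329.6 and 344 CPM after training. Estimates were below 0 for 16 of 31, against 51.7%. Within KO-labelled mice none of the 31 and 0.0% of all genes were called, none had an unadjusted p under 0.05 (3.01% of all genes did), and 18 estimates were below 0, against 50.9%. Without KO house control replicate 1 that count was 7 of 31. The authors' deposited tables called none of the 31 for training in either genotype, where they called 0.117% (WT) and 0.0716% (KO) of all genes.

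The interaction of genotype and training was tested directly. None of the 31 and 0.0% of all genes were called, and none of the 31 had an unadjusted p under 0.05, as 1.5% of all genes did, and 15 estimates were below 0, against 51.4%. The smallest p was that of Srsf12 (log2 difference of training effects -0.27, SE 0.13, interval -0.56 to 0.02, unadjusted p = 0.0690, adjusted p = 1.00). Hnrnpc, with the third smallest p, was at 202, 173 and 159 CPM in WT house controls, 190.4, 213 and 181 CPM in WT trained, 192, 173 and 179.7 CPM in KO-labelled house controls and 194, 167 and 182 CPM in KO-labelled trained mice. These 4 groups all overlapped. Of the 31 intervals of the interaction, 30 lay within 1.5-fold and 20 within 1.3-fold, so for the other 11 a difference of 1.3-fold between the training effects was not excluded.

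Beyond the SR and hnRNP genes, 4 lists of RNA-processing genes were read from the same fit, where 0.576% of all genes were called over both treatments and 52.0% of estimates were below 0. Of 50 tested other hnRNP and RNA-binding splicing genes, 1 was called over both treatments, Mbnl2 itself, higher in KO-labelled libraries, and none lower, with 23 estimates below 0 and a median of 0.01. Its other lowest p values were those of Khdrbs3, a STAR-family splicing regulator of neurons (0.32, adjusted p = 0.107), and Pcbp1, a poly(C)-binding relative of Hnrnpk (-0.17, adjusted p = 0.157). DESeq2 called both of these, and also Elavl3 (0.19, adjusted p = 0.0312) and Mbnl1, the paralog of Mbnl2 (0.26, adjusted p = 0.0470). Pcbp1 averaged 189 ± 7.96 CPM over the 6 WT libraries and 168 ± 6.80 CPM over the 6 labelled KO (SD), and these did not overlap, as for 0.717% of all genes in this direction. None of the 35 SR-related proteins, kinases and importin genes was called, with 16 estimates below 0. None of 71 core spliceosome genes was called, with 55 estimates below 0 and a median of -0.07, against -0.01 over all genes. Plrg1, of the Prp19 complex, had -0.18 (adjusted p = 0.223) and Snrpb, a core Sm protein, -0.18 (adjusted p = 0.256). None of 17 genes of nonsense-mediated decay and the exon junction complex was called, with 10 estimates below 0, among them the helicase Eif4a3 at -0.14 (adjusted p = 0.199). For training over both genotypes none of these genes was called in any of the 4 lists, as 0.0% of all genes were. Estimates were then below 0 for 19 of 50, 14 of 35, 22 of 71 and 5 of 17, against 52.3% of all genes, with medians of 0.06, 0.01, 0.03 and 0.08.

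How alike the genes were in profile was described over the 12 libraries, which share depth and dissection with every gene. Pearson's r of a gene with the mean of the other 30 ran from -0.16 for Srsf12 to 0.95 for Hnrnph1. Low values were also those of Hnrnph3 (-0.03), Srsf4 (0.06) and Srsf5 (0.20), and high values those of Hnrnpm (0.86), Srsf1 (0.85) and Srsf7 (0.84). Of all other genes, the most like in profile to the mean of the 31 were Ccnl1, a cyclin of the spliceosome (r = 0.96), St3gal1, a sialyltransferase (r = 0.95), and Cdc37, a co-chaperone of kinases (r = 0.95).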

How the data were processed

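Dorsal hippocampus RNA from 12 mouse libraries, 3 per group, was sequenced. The deposited files hold whole-number counts per gene symbol. Per the submitters' processing notes, reads were handled with TopHat2 2.1.1, Bowtie2 2.3.4.2 and cutadapt 1.18, counting used HTSeq 0.9.1, comparisons used DESeq2 1.18.1, and the build was mm10. Counting mode and strand setting are not given in the sources used here. The authors also deposited 4 comparison tables giving log2 fold changes, p-values, a test score and a mean normalised signal. 0 rows named no gene.

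Counts were scaled by TMM and filtered by filterByExpr (minimum count 10, minimum total 15), leaving 15622 genes. edgeR 4.0.16 (R 4.3.3, limma 3.58.1) fitted 4 group means robustly (8 residual degrees of freedom), with 7 contrasts and adjustment over all genes (threshold 0.05). DESeq2 1.42.0, other scalings and filters, and left-out libraries were alternatives. The scripts were tested on simulated counts. Replicates were not duplicates: chi-square per degree of freedom was 13 to 91. Exon lengths and shared windows came from GENCODE M21, promoters from RefSeq (GRCm38.p6).

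Genes given with a value for each library were the 3 of smallest p per contrast, the 3 highest and the lowest per kb in each family. Srsf6, Hnrnph1 and Hnrnpa2b1 were chosen after their values were seen. The genes and lists were chosen with earlier results of these data known. Protein comparisons were not made here.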

Additional observations from a re-analysis of the deposited data

Results flagged for a closer look

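Each of the 31 genes was checked for a library far from the rest in 4 pools of 6 libraries (WT, KO-labelled, house control and trained), 124 checks in all, of which chance marks about 1 in 20. Dixon's test marked 3, all in KO-labelled house control replicate 3 among the 6 house control libraries. Srsf6 stood there at 86.17 CPM, with the other 5 at 109.4 to 113 CPM. Srsf2 stood at 104 CPM, with the others at 119.7 to 129.1 CPM. Srsf11, an SR protein of neuronal microexons, stood at 99.15 CPM, with the others at 109.7 to 114.4 CPM. These 3 marks are fewer than chance gives, and they share a library. The test looks for a single library apart from the rest, so 2 low libraries in a pool can hide each other. Srsf6 was not marked among KO-labelled libraries, where it stood at 86.2 and 88.0 CPM with the others at 102 to 114 CPM.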

How the results depend on the processing

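None of the 31 genes was called by edgeR in any of the 7 contrasts under any alternative run, including 12 that leave out a library each. DESeq2 called 2 of 31 between genotypes over both treatments. The number of estimates below 0 for training in KO-labelled mice ran from 7 to 22 when a library was left out (18 with all), the lowest without KO house control replicate 1. Between genotypes over both treatments this number ran from 23 to 29 over all alternatives and the median from -0.11 to -0.05. An alternative left out 3 house control libraries (WT replicates 2 and 3, KO replicate 3), those with most RNA of choroid plexus or thalamus. It kept only replicate 1 of the WT house controls. Hnrnpul2 for training in WT then reversed to -0.042 and Hnrnpc in the interaction to 0.042. Both genes had their highest WT house control value in that replicate, at 383 and 202 CPM, and the cause was not tested. The count of all genes called between genotypes over both treatments was 90 by edgeR, 716 by DESeq2, 59 with no filter on low counts, 166 with the run of libraries as a covariate, 2 in the first run alone and 1 without the 3 house control libraries. It was 26 without KO replicates 2 and 17 without KO replicates 3 of both treatments, and ran from 8 (without WT trained replicate 3) to 268 (without WT house control replicate 1) when 1 library was left out. No paired analysis was possible because the labels carry no replicate numbers shared between groups. The fewest counts of any of the 31 genes in a library were 119, and 3 libraries per group limit the contrasts within a treatment or genotype.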
